A study of Homo sapiens with 24 samples.

Results

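The expression of 7 genes of the aspartic protease family was followed in HepG2, an established line from a human liver carcinoma, whose glucocorticoid receptor had been replaced by tagged versions. The genes are PGC (ENSG00000096088), NAPSA (ENSG00000131400), NAPSB (ENSG00000131401), CTSD (ENSG00000117984), CTSE (ENSG00000196188), BACE1 (ENSG00000186318) and BACE2 (ENSG00000182240). The 7 rows were taken by gene symbol from a table of 60683 genes. Membership of the family chose 5 of them, whereas PGC and NAPSB were chosen by a measured value, their higher counts with dexamethasone in these same libraries. The dexamethasone responses of PGC and NAPSB are therefore given as a description with no test, and tests are kept to the other 5 genes and to comparisons between receptor genotypes. All cells carried a CRISPR/Cas9 knockout of the endogenous receptor gene NR3C1 (HepG2 GR-/-, the genotype label being sg18 with the receptor put back) and a doxycycline-inducible lentiviral cDNA for Ty1-tagged WT, K154R or K154Q receptor. K154R replaces a lysine with an arginine that cannot be acetylated, and K154Q replaces it with a glutamine as a mimic of acetylation. Every group had doxycycline for 24 h at doses set to match receptor protein, a further 24 h in charcoal-stripped medium, and then 1 µM dexamethasone, a synthetic glucocorticoid, or ethanol vehicle for 6 h. The 6 groups held 4 biological replicates each, from 2 experiments with 2 transductions per genotype, and the model is limited to a line whose receptor is expressed from a transgene.

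Aspartic proteases cut proteins with a pair of catalytic aspartates held between the lobes of the enzyme. Most are made as inactive zymogens that lose a propeptide in an acidic compartment. PGC encodes pepsinogen C, the zymogen of the gastric enzyme gastricsin, which is best known from the stomach mucosa. NAPSA encodes napsin A of lung alveolar type II cells and kidney, and NAPSB is its neighbouring, closely related copy, annotated as a pseudogene. CTSD encodes cathepsin D, the main aspartic protease of lysosomes, and CTSE encodes cathepsin E, an endosomal enzyme of gastric epithelium and immune cells. BACE1 and BACE2 encode membrane-anchored proteases, of which BACE1 is the β-secretase that makes the first cut in amyloid precursor protein. Glucocorticoids act through a receptor that binds DNA once hormone is bound and switches target genes on or off.

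Library totals ran from 23863672 to 42072021 counts, and 23420 to 25659 genes had at least 1 count in a library. A filter on low counts left 16196 genes for testing, among them 5 of the 7 proteases. NAPSA and BACE2 did not pass, and NAPSB passed because of its libraries with dexamethasone. FKBP5, a classical target that encodes a co-chaperone of steroid receptors, rose on average by 1.06 on the log2 scale (SE 0.05, edgeR adjusted p = 4.5e-12). NR3C1 averaged 83.4 to 93.1 CPM (counts scaled to a common library size) over the 6 groups, with an averaged log2 response to dexamethasone of -0.05 (SE 0.08, edgeR adjusted p = 0.943), and the counts do not separate the introduced cDNA from the disrupted endogenous gene. All 10 hepatocyte markers were tested genes, with ALB at a mean of 17510 CPM. Of 13 gastric markers in the table, PGA3, PGA4 and LIPF had 0 counts in every library, and the sum of the 13 ran from 0.397 to 1.20 CPM in vehicle libraries and from 0.427 to 1.52 CPM in dexamethasone libraries. The 8 lung alveolar type II markers summed to between 1.11 and 3.00 CPM, most of it ABCA3, with SFTPA1 at 0 in every library. Among 8 leukocyte markers, PTPRC and CD3E had 0 counts in every library, and LYZ, at a mean of 731.5 CPM, made up nearly all of a sum between 484.8 and 1016 CPM.

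The promoters of PGC and CTSD are shown first because these genes had the highest levels of the family and lay on opposite sides of the response: PGC was chosen for its rise and CTSD was not. Both are the 250 bases before the RefSeq start on the minus strand of GRCh38.p14, written 5′ to 3′, PGC from chr6:41747398-41747647 and CTSD from chr11:1763928-1764177. Capitals mark a TATAAA box at position -30 in PGC and a CACGTG E-box at position -47 in CTSD, counted from the start to the first base of the motif.
PGC: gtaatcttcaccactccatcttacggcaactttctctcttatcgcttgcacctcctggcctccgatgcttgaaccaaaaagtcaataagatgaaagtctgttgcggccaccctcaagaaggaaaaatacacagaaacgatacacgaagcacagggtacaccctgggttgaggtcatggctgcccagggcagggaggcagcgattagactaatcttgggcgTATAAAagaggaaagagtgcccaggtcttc
CTSD: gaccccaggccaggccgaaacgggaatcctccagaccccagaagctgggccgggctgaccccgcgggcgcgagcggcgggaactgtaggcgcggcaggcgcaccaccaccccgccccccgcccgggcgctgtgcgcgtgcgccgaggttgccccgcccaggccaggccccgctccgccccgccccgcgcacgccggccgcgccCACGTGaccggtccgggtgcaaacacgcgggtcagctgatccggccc
A glucocorticoid receptor half-site, AGAACA or its reverse complement TGTTCT, was searched on both strands from 250 bases before to 50 after each start in the RefSeq table, together with the full glucocorticoid response element, in which AGAACA is followed after 3 bases by TGTTCT. Neither was found in the windows of PGC, CTSD, CTSE (1 promoter each) or NAPSA (2 promoters), and 1 of the 3 promoters of BACE1 held the reverse complement of the half-site at position -42. The RefSeq table held no promoter of NAPSB or BACE2, so these genes were not searched. Over all 35116 promoters of the table, 14.8% held the half-site and 0.00285%, a single promoter, the full element. The other motifs, added after the data were seen, were present in 11.5% of promoters for TATAAA and 7.26% for CACGTG. The E-box also stood at position -77 in a promoter of NAPSA. These matches describe letters in short windows and do not show where the receptor binds.

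In the GENCODE 29 annotation (GRCh38), PGC spans chromosome 6 from 41736711 to 41754109 on the minus strand with 12 merged exons. The RefSeq start above therefore lies inside the annotated gene. Merged exon lengths of this annotation equal the lengths given in the deposited table for PGC, NAPSA, NAPSB and BACE1. They differ for CTSD (3126 against 3079 bases in the deposited table), CTSE (2671 against 2657) and BACE2 (9619 against 9631). NAPSB spans chromosome 19 from 50333796 to 50344767 and is a transcribed unprocessed pseudogene, and NAPSA spans 50358477 to 50365830, both on the minus strand. NR1H2, the gene of an oxysterol receptor, spans both napsin genes on the opposite strand without sharing exon bases. The NAPSA-201 and NAPSB-206 transcripts were identical at 1155 of 1266 aligned bases (91.2%). Of the 1217 windows of 50 bases in NAPSB-206, 116 (9.53%) also occurred in a NAPSA transcript, and the share fell to 4.53% at 75 bases and 2.23% at 100 bases. Reads that lie within such windows could be given to either gene, and the treatment of multi-mapping reads is not known here. The 90-base stretch of the NAPSA-201 coding part with the most differences, 22, is shown because it is where the copies are easiest to tell apart. It covers bases 1242 to 1331 of NAPSA-201 and 1039 to 1128 of NAPSB-206, written 5′ to 3′ from the GENCODE 29 transcripts, with capitals at the differing bases.
NAPSA: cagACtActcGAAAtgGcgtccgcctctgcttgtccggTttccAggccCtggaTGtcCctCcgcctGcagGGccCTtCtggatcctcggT
NAPSB: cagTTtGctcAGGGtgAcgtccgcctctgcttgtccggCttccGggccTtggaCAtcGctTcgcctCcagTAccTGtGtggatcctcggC

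With dexamethasone the level of PGC was 1.99-fold to 2.47-fold that in vehicle, depending on the receptor genotype. In WT cells the 4 vehicle libraries held PGC at 76.0, 43.2, 55.8 and 51.6 CPM (replicates 1 to 4), scaled by TMM factors, and the dexamethasone libraries at 141, 100.3, 126 and 115 CPM. With K154R the vehicle values were 61.3, 46.9, 54.5 and 50.8 CPM, and those with dexamethasone were 145, 123, 112 and 148 CPM. With K154Q they were 71.7, 41.5, 55.5 and 42.8 CPM in vehicle, and 112, 81.8, 99.8 and 127 CPM with dexamethasone. In each genotype the lowest library with dexamethasone stood above the highest vehicle library. Each PGC value rests on 1217 to 4716 counts per library, so counting error is small beside the spread between replicates. In bulk RNA, more cells that express a gene and more RNA per cell cannot be told apart. In vehicle and with dexamethasone, the group means were 56.7 ± 13.9 and 121 ± 17.2 CPM for WT (SD, n = 4), 53.4 ± 6.09 and 132 ± 17.6 CPM for K154R, and 52.9 ± 14.1 and 105 ± 19.2 CPM for K154Q. The fitted log2 responses were 1.09 (SE 0.17), 1.31 (SE 0.17) and 0.99 (SE 0.17), or 2.13-fold, 2.47-fold and 1.99-fold, and their average was 1.13 (SE 0.10). Ratios between libraries of the same replicate number lay between 1.86 and 2.32 for WT, 2.05 and 2.92 for K154R, and 1.56 and 2.97 for K154Q.

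NAPSB had 0 to 8 counts in vehicle libraries and 30 to 167 with dexamethasone. The raw counts in WT were 6, 3, 3 and 0 in vehicle and 36, 41, 58 and 106 with dexamethasone. K154R libraries held 6, 2, 4 and 4 counts in vehicle and 48, 90, 54 and 167 with dexamethasone. In K154Q there were 1, 8, 4 and 4 counts in vehicle and 30, 62, 50 and 122 with dexamethasone. No vehicle library reached the lowest library with dexamethasone, and replicate 4 was the highest of the 4 dexamethasone libraries in each genotype. WT vehicle replicate 4, with 0 counts, allows a level of up to 0.0845 CPM (3 counts). The group means were 0.0927 ± 0.0812 and 1.99 ± 1.04 CPM in WT (SD, n = 4), 0.124 ± 0.0458 and 2.96 ± 1.63 CPM in K154R, and 0.141 ± 0.0862 and 2.01 ± 1.35 CPM in K154Q. Summed counts went from 12 to 241 in WT, a ratio of 22.3 after scaling for depth with an exact 95% binomial interval of 12.5 to 43.8. The sums were 16 and 359 in K154R, a ratio of 24.8 (15.1 to 43.9), and 17 and 264 in K154Q, a ratio of 14.0 (8.58 to 24.4), and these intervals cover counting error only. The fitted log2 responses were 4.42 (SE 0.63), 4.56 (SE 0.59) and 3.80 (SE 0.59), with an average of 4.26 (SE 0.35). The WT value moved to 5.05 without WT vehicle replicate 1, to 5.22 with all libraries numbered 1 left out and to 3.60 with all those numbered 4 left out.

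**Figure D1:**
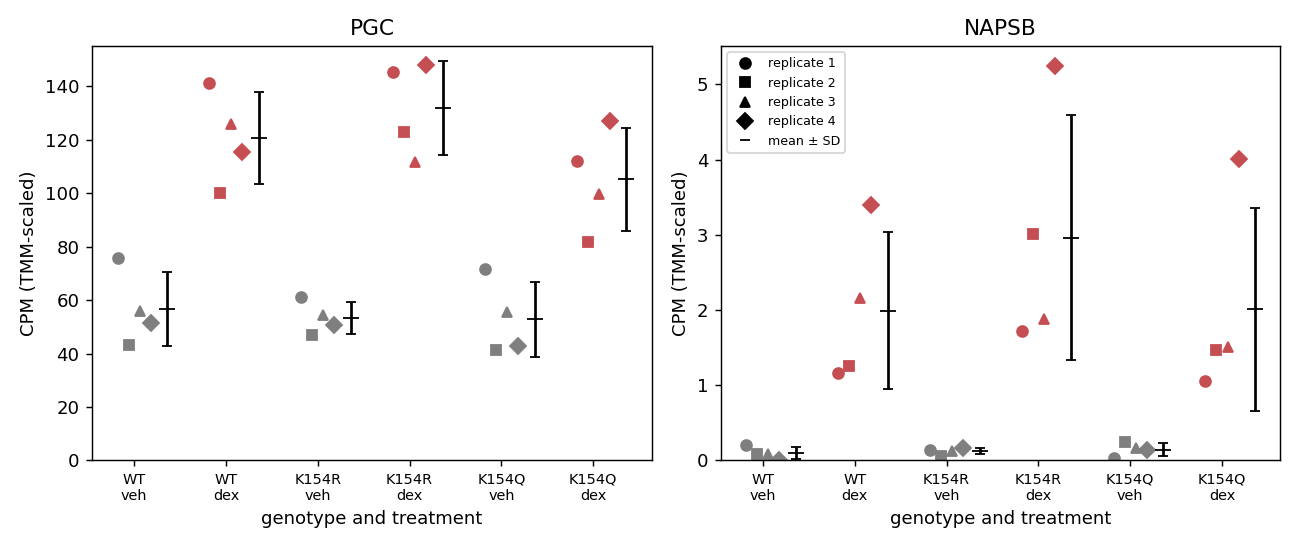
PGC (left) and NAPSB (right) in the 24 libraries, in TMM-scaled CPM on linear axes that start at 0, by genotype and treatment (grey vehicle, red dexamethasone), with marker shape for the replicate number and a bar for mean ± SD of 4 libraries. In each genotype every dexamethasone library lies above every vehicle library for both genes, and for NAPSB the replicate 4 library is the highest with dexamethasone.

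PGC and NAPSB were the 2 of 7 proteases whose vehicle and dexamethasone libraries did not overlap. Wholly higher with dexamethasone were 1.41% of all tested genes in WT cells, 1.33% with K154R and 1.27% with K154Q, and nothing is read from the count of 2 because the responses had chosen them. NAPSA, the protein-coding copy of NAPSB, had 10 counts in all, spread over 9 of the 24 libraries with at most 2 in a library. Of these, 2 counts were in vehicle and 8 in dexamethasone libraries, and the 4 K154Q vehicle libraries had none, which allows up to 0.0248 CPM over the group (3 counts). In a fit without the filter on low counts, the averaged log2 response of NAPSA was 1.66 (SE 0.83, edgeR adjusted p = 0.944), and a value from so few counts carries little weight.

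For cathepsin D no response to dexamethasone was called. In WT cells CTSD stood at 150, 130, 155 and 157 CPM in vehicle and 156, 149, 172 and 157 CPM with dexamethasone. The corresponding values in K154R were 124, 164, 184 and 187 CPM in vehicle and 144, 170, 188 and 197 CPM with dexamethasone. In K154Q the vehicle libraries held 148, 142, 146 and 167 CPM, and those with dexamethasone 139, 134, 137 and 171 CPM. Vehicle and dexamethasone libraries overlapped in all 3 genotypes. The log2 responses of CTSD were 0.10, 0.08 and -0.05, with an average of 0.04 (SE 0.07, 95% interval -0.09 to 0.18, edgeR adjusted p = 0.937). Part of the CTSD transcript overlaps other genes. With AC068580.4 on the same strand (42 counts in all) 1304 exon bases are shared, and with AC068580.3 on the opposite strand (267 counts) 493. Annotation release and strand setting of the counting are unknown here, so the level of CTSD is uncertain.

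Cathepsin E was scarce, at 6 to 30 counts per library. Its group means were 0.425 ± 0.135 and 0.600 ± 0.274 CPM in WT (SD, n = 4), 0.439 ± 0.0981 and 0.534 ± 0.258 CPM in K154R, and 0.594 ± 0.215 and 0.495 ± 0.150 CPM in K154Q, vehicle first. The libraries of the 2 treatments overlapped in every genotype. CTSE responses were 0.49 (SE 0.38), 0.29 (SE 0.38) and -0.24 (SE 0.37) on the log2 scale, with an average of 0.18 (95% interval -0.27 to 0.63, edgeR adjusted p = 0.92). At this depth an averaged CTSE response within that interval was not excluded.

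The β-secretase gene BACE1 did not pass the test. It held 7.43 to 8.59 CPM in WT vehicle libraries and 6.84 to 9.85 CPM with dexamethasone, with 6.75 to 8.65 and 5.98 to 9.11 CPM in K154R, and 6.79 to 8.49 and 6.74 to 8.63 CPM in K154Q. The averaged log2 response of BACE1 was 0.08 (SE 0.07, 95% interval -0.08 to 0.23, edgeR adjusted p = 0.896). BACE1 shares 1872 exon bases with BACE1-AS (2341 counts in all, against 5912 for BACE1) and 1239 with RNF214 (10167 counts), both on the opposite strand. No source used here gives the strand setting of the counting, so BACE1 counts are uncertain. BACE2 had 1 to 8 counts in a library and 95 in all, of which 47 were in vehicle and 48 in dexamethasone libraries. Without the filter on low counts its averaged log2 response was 0.07 (SE 0.36, edgeR adjusted p = 1). None of CTSD, CTSE and BACE1, the 3 of these 5 genes that were tested, was called at an adjusted p under 0.05. Among all tested genes, 1.06% were called for the averaged response (1.02% higher and 0.037% lower), and 0.161%, 0.309% and 0.13% for the WT, K154R and K154Q responses, all of them higher.

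Divided by gene length, the levels of the 7 genes spanned several orders of magnitude, and their order differed between treatments. In the 12 vehicle libraries CTSD averaged 50.2 ± 6.21 CPM per kilobase (SD, n = 12) and PGC 26.8 ± 5.41. They were followed by BACE1 at 1.05 ± 0.101, CTSE at 0.183 ± 0.0613, NAPSB at 0.0624 ± 0.0363, BACE2 at 0.0129 ± 0.00568 and NAPSA at 0.0012 ± 0.00281. The ranges over vehicle libraries were separate between CTSD and PGC, PGC and BACE1, and BACE1 and CTSE, and overlapped between the neighbours below them. With dexamethasone PGC stood at 58.9 ± 9.85 CPM per kilobase and CTSD at 51.8 ± 6.65, with ranges of 40.4 to 73.2 and 43.5 to 63.9 that overlapped. By mean, NAPSB moved from the fifth place to the third, at 1.21 ± 0.689 CPM per kilobase against 1.11 ± 0.152 for BACE1. The medians had the other order, 0.938 for NAPSB and 1.13 for BACE1, and these neighbours did not differ beyond their spread. CTSE at 0.204 ± 0.0815, BACE2 at 0.0132 ± 0.00651 and NAPSA at 0.0062 ± 0.00609 kept their order, with the ranges of the last pair overlapping. Among all tested genes, the mean over the 24 libraries placed CTSD above 95.6% of genes per kilobase, PGC above 94.5%, BACE1 above 32.7%, NAPSB above 25.2% and CTSE above 10.6%.

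**Figure D2:**
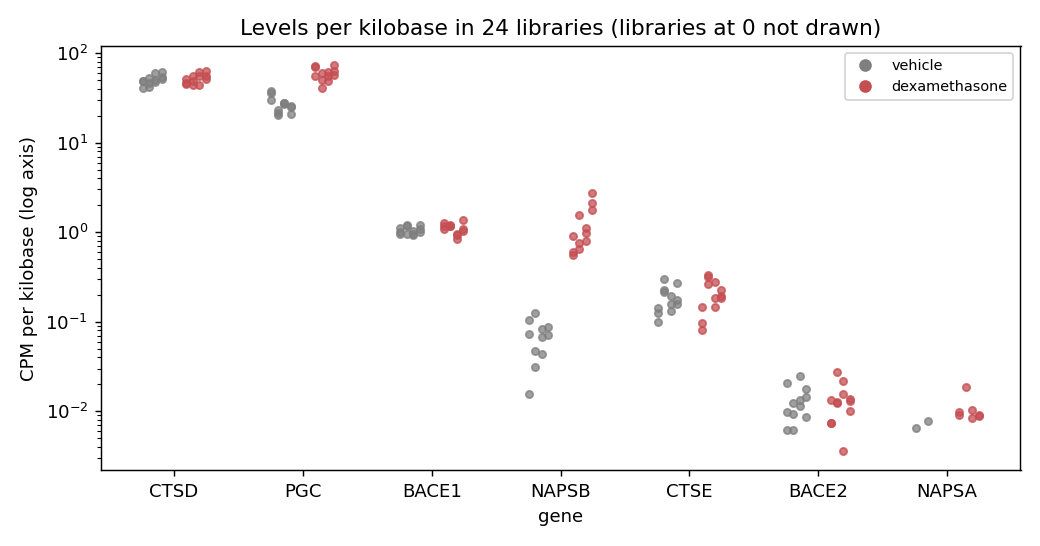
Level of each protease gene in CPM per kilobase of gene length on a log axis, 1 point per library (grey vehicle, red dexamethasone), with libraries at 0 counts not drawn. CTSD and PGC lie above 20 CPM per kilobase in every library, NAPSB moves from the range of CTSE and below to that of BACE1, and NAPSA has points in 9 libraries.

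Whether the response depended on the acetylation site was tested as a difference of responses between genotypes, which the choice of the genes had not used. For PGC the K154R response exceeded the WT response by 0.22 (95% interval -0.29 to 0.72), K154Q minus WT was -0.10 (-0.60 to 0.40), and K154Q minus K154R was -0.31 (-0.82 to 0.19), all on the log2 scale. None of these differences was called (edgeR adjusted p = 1 each, unadjusted p from 0.208 to 0.685). With the replicate number as a block, under which the numbers pair these libraries, the difference between K154Q and K154R was the same -0.31. Its 95% interval was then -0.61 to -0.006, at an unadjusted edgeR p of 0.0456 and an adjusted p of 1. NAPSB differences were 0.14 (SE 1.20), -0.62 (SE 1.02) and -0.77 (SE 0.99), with 95% intervals of -2.34 to 2.62, -2.72 to 1.47 and -2.81 to 1.27. Differences in the NAPSB response as large as these intervals allow were therefore not excluded with these vehicle counts. These SEs come from the test's F and varied between fits: DESeq2 gave 0.84 for K154R minus WT and 0.83 for K154Q minus WT. No difference was called for CTSD, CTSE or BACE1 either (edgeR adjusted p = 1 for each), and the share called among all tested genes was 0% for the 3 differences, and an unadjusted p under 0.05 was reached by 115, 145 and 99 genes in turn.

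Levels between genotypes were compared within each treatment. In vehicle, PGC in K154R and K154Q differed from WT by -0.08 (SE 0.17) and -0.10 (SE 0.17) on the log2 scale, and CTSD by 0.16 (SE 0.11) and 0.03 (SE 0.11). With dexamethasone the difference K154Q minus K154R was -0.33 for PGC (95% interval -0.68 to 0.02, unadjusted p = 0.0665 by edgeR) and -0.27 for CTSD (-0.50 to -0.03, unadjusted p = 0.0272), and neither was called (adjusted p = 1 for both). NAPSB with dexamethasone was at -0.57 for K154Q minus K154R (-1.41 to 0.27, unadjusted p = 0.174 by edgeR) and at 0.58 for K154R minus WT (-0.27 to 1.43, unadjusted p = 0.17), with an adjusted p of 1 for both. With the replicate block, under which the numbers pair these libraries, the unadjusted p for K154Q minus K154R was 0.00265 for PGC and 0.00297 for CTSD, and the adjusted p was 0.226 for both. For NAPSB the blocked difference between K154Q and K154R was -0.60 (-1.11 to -0.09, unadjusted p = 0.0238, adjusted p = 0.358). The share called among all tested genes was 0% in each of the 6 level comparisons.

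**Figure D3:**
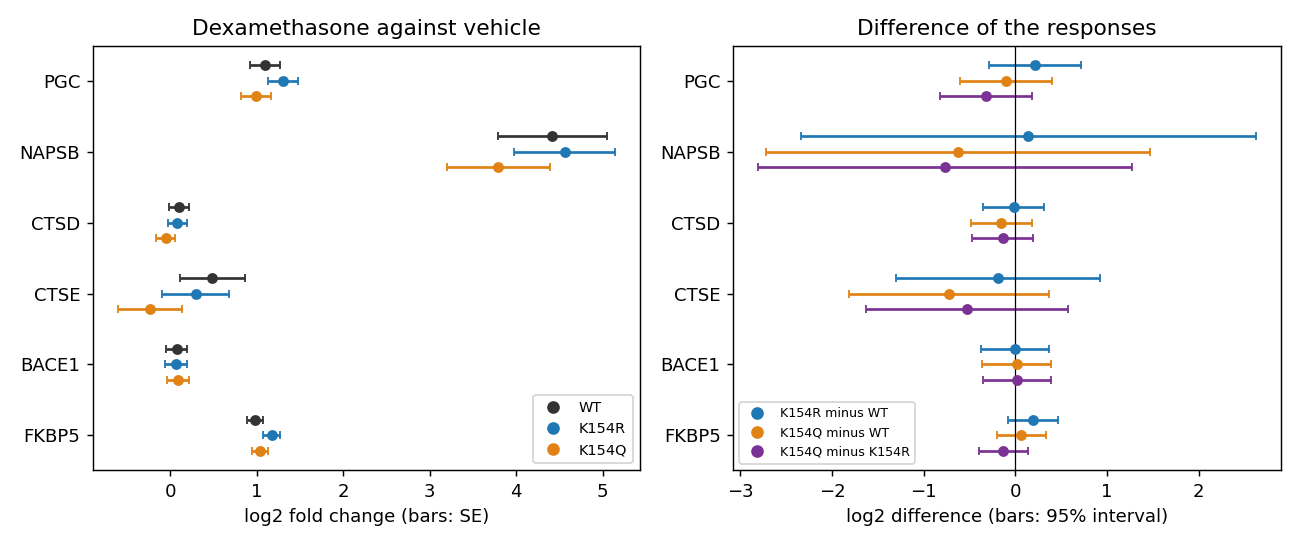
Left, fitted log2 fold change of dexamethasone against vehicle for the 5 tested proteases and FKBP5 in WT, K154R and K154Q, with bars for SE. Right, differences of these responses between genotypes, with bars for 95% intervals and a vertical line at 0. In this fit without the replicate block, the intervals of all 15 differences of the 5 proteases include 0, and NAPSB has the widest.

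Replicate numbers, given in the labels, carried a pattern across the tested genes that was also seen in several of these proteases. Over all tested genes, departures from group means in libraries of different groups correlated at a median r of 0.347 for the same number. For different numbers the median r was -0.126. By these correlations 23 of the 24 libraries were closest to their own number. The share of all tested genes with runs like those below is not given here. PGC stood above its group mean in all 6 libraries numbered 1, by 0.11 to 0.48 on the log2 scale, and below it in all 6 numbered 2, by -0.36 to -0.09. CTSE did the reverse, with all 6 libraries numbered 1 below the group mean (-0.98 to -0.17) and all 6 numbered 2 above it (0.35 to 0.71). BACE1 was below its group mean in all 6 libraries numbered 3. For NAPSB the libraries numbered 4 were above the mean in all 3 dexamethasone groups, by 0.88, 0.96 and 1.16, while in vehicle they stood at -1.14, 0.34 and 0.09. No source used here says which experiment or transduction a number stands for, and its part in these levels was not tested. The spread within groups (SD of log2 CPM over 18 residual degrees of freedom) was 0.27 for PGC, 0.17 for CTSD and 0.18 for BACE1. It was 0.52 for CTSE and 0.71 for NAPSB, the last larger than in 98.6% of tested genes. Those genes were not matched for level, and NAPSB had only 0 to 8 counts in vehicle libraries. The part of counting error in its spread was not tested.

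**Figure D4:**
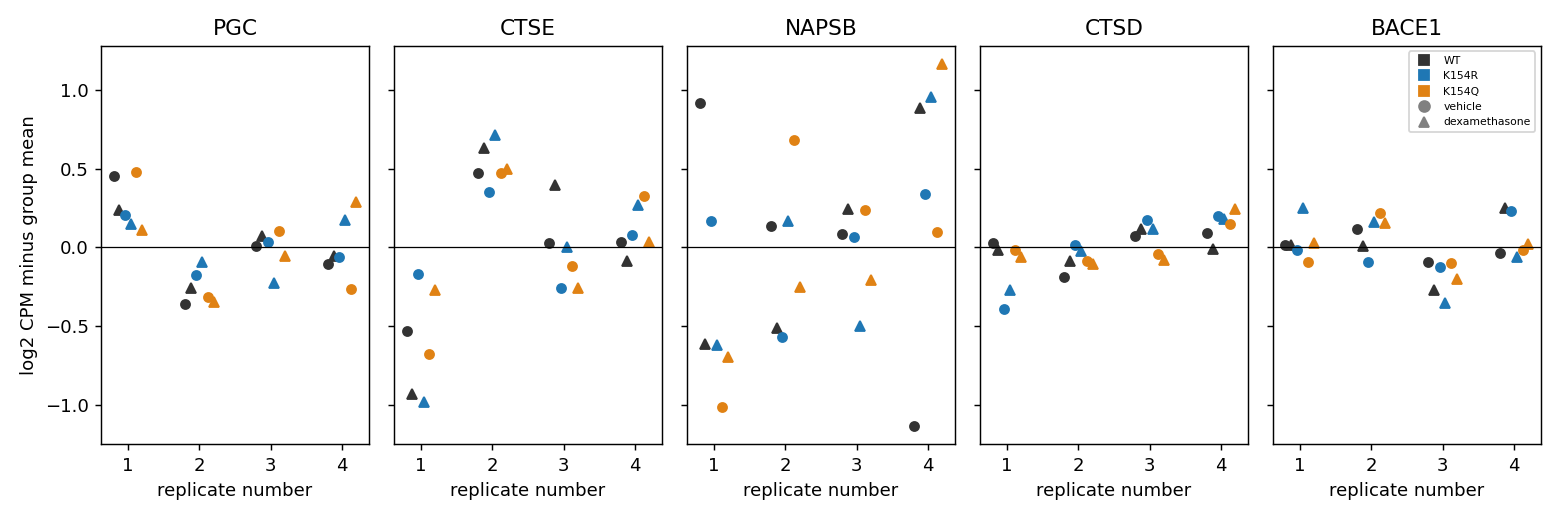
Deviation of each library from its group mean in log2 CPM (prior count of 2), by replicate number, for the 5 tested proteases, with colour for genotype, circles for vehicle and triangles for dexamethasone. PGC points lie above 0 at number 1 and below 0 at number 2, and those of CTSE lie the other way round.

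The genes whose levels ran most like those of PGC and NAPSB were ranked among 12071 named genes that averaged 1 CPM or more in the 24 libraries. All values share the same libraries and the 2 treatments, so the order describes these libraries. Since PGC and NAPSB were chosen for their rise with dexamethasone, other genes that rise with it would rank high by log2 CPM. By log2 CPM the closest to PGC was FKBP5 (Pearson r = 0.929), followed by HOMER2, a synaptic scaffold gene (0.924), EMP2, an epithelial membrane protein gene (0.913), CDK19, a Mediator kinase gene (0.909), and SMOC1, a matrix protein gene (0.900). HOMER2 had averaged 36.6, 32.3 and 36.4 CPM in WT, K154R and K154Q vehicle libraries and 71.4, 67.9 and 72.9 CPM with dexamethasone. Closest to NAPSB were FKBP5 (0.946), CRY2, a circadian repressor gene (0.941), SYBU, which encodes syntabulin (0.934), UPP2, a uridine phosphorylase gene (0.932), and KCNH2, a potassium channel gene (0.923). KCNH2 averaged 0.380, 0.252 and 0.265 CPM in the vehicle groups and 2.68, 3.51 and 2.56 CPM with dexamethasone. UPP2 averaged 0.24, 0.33 and 0.19 CPM in vehicle and 2.21, 2.44 and 1.87 CPM with dexamethasone. These values are not divided by gene length, so they do not place either gene beside NAPSB in level. With group means removed, other genes led. For PGC they were SEZ6L2 (0.833), A2M, a plasma protease inhibitor (0.810), CXCL16, a chemokine gene (0.806), PHF7 (0.786) and FBLN1, the fibulin-1 gene (0.779), whose averaged log2 responses to dexamethasone lay between -0.01 and 0.10. For NAPSB they were ATXN7L1 (0.687), LPXN (0.675), PRDX6-AS1 (0.667), PSMG3-AS1 (0.641) and ZNF528-AS1 (0.615). PGC and NAPSB themselves correlated at 0.882 over the 24 libraries, and choosing both for their rise in these libraries favours a high value. With group means removed they correlated at 0.114.

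PGC has a same-strand neighbour that begins shortly after its 3′ end, found by position after the data were seen. TFEB (chromosome 6, 41683978 to 41736259) encodes a transcription factor of lysosome biogenesis and starts 451 bases downstream of PGC. In WT it stood at 13.3, 12.04, 14.6 and 16.8 CPM in vehicle and 18.8, 19.0, 24.0 and 22.1 CPM with dexamethasone. K154R libraries had 12.7, 11.8, 14.8 and 12.4 CPM in vehicle and 21.1, 22.4, 27.5 and 30.6 CPM with dexamethasone, and K154Q libraries 13.1, 10.9, 17.4 and 13.5 CPM in vehicle and 19.9, 19.4, 23.2 and 26.3 CPM with dexamethasone. The treatments did not overlap for TFEB in any genotype, beside the backgrounds of 1.41%, 1.33% and 1.27% of tested genes given above. Log2 responses of TFEB were 0.56 (SE 0.14), 0.97 (SE 0.14) and 0.70 (SE 0.14), and the average of 0.74 (SE 0.08) was called (edgeR adjusted p = 2.48e-06). By genotype TFEB was called in K154R (adjusted p = 4.82e-04) and K154Q (0.0403) but not in WT (0.18), and the difference K154R minus WT of 0.41 (SE 0.20) did not pass the test (adjusted p = 1). The K154Q call was lost when any of K154Q vehicle replicates 1, 2 and 4 or dexamethasone replicates 3 and 4 was left out (adjusted p from 0.111 to 0.257), and the WT call was gained with DESeq2 (0.0427) and with no filter on low counts (8.42e-04). Of the 4 tested genes within 100 kb of PGC, 1 (TFEB) was called for the averaged response, beside 1.06% of all tested genes, and the other 3 had values between -0.004 and 0.23. Gene counts do not show at which start the transcript behind a read of TFEB began.

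Among other genes of the pathways around these proteases, 1 was called for the averaged response, where 1.06% of all tested genes were called. Of 14 other aspartic proteases, 8 were tested and 0 were called in either direction for the averaged response, with a median log2 value of 0.07 beside -0.01 over all tested genes. Log2 responses were -0.23 for ASPRV1, a skin protease, and 0.06 for HM13, the signal peptide peptidase. All 9 genes of amyloid precursor processing around the β-secretases were tested and 0 were called (median 0.08), with NCSTN, a γ-secretase subunit, at 0.08, APP itself at 0.09 and its relative APLP2 at 0.07. Among 16 lysosomal cysteine and serine proteases 13 were tested and 0 called (median 0.05), with values from -0.12 for CTSZ to 0.20 for CTSS, the cathepsin Z and cathepsin S genes. Those with the smallest unadjusted p were LGMN, the legumain gene (0.08), SCPEP1, a serine carboxypeptidase gene (0.10), and TPP1, a tripeptidyl peptidase gene (0.07). Of 8 cystatins, inhibitors of cysteine proteases, 3 were tested and 0 called: CSTA at -0.08, CST3 at 0.04 and CSTB at -0.004.

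The 12 genes of sorting and activation of cathepsin D and its lysosomal companions were all tested, and 1 was called higher and 0 lower (median 0.08), beside 1.02% of all tested genes called higher and 0.037% lower. It was SORT1, which encodes sortilin, a sorting receptor that carries proteins towards lysosomes. SORT1 averaged 216 ± 25.5 and 259 ± 23.4 CPM in WT (SD, n = 4), 218 ± 13.2 and 261 ± 42.01 CPM in K154R, and 203 ± 22.5 and 241 ± 16.9 CPM in K154Q, vehicle first. Its averaged log2 response was 0.26 (SE 0.06, edgeR adjusted p = 0.0384), and 13 of the 24 fits that each left out 1 library lost the call, with an adjusted p up to 0.0984. The adjusted p was 0.243 without the libraries numbered 1 and 0.257 without those numbered 4. No gene of these 5 lists was called for a difference of responses or a level between genotypes.

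In the comparison of K154Q with K154R under dexamethasone, where CTSD had its lowest unadjusted p, 12 of the 13 tested lysosomal cysteine and serine proteases had lower values in K154Q, with a median of -0.18 on the log2 scale beside 0.005 over all tested genes. Of these 13, 7 had an unadjusted p under 0.05, beside 3.00% of all tested genes, and 0 were called (edgeR adjusted p = 1 for each). They were CTSA, CTSC, CTSH, CTSL, CTSV, LGMN and PRCP, named after their values were seen, with log2 differences from -0.29 for CTSV to -0.18 for CTSA. The amyloid list had a median of -0.15 with 9 of 9 negative, the companions of cathepsin D -0.12 with 11 of 12 negative, and the other aspartic proteases -0.12 with 6 of 8 negative. The 3 tested cystatins went both ways, with CST3 at -0.24, CSTB at -0.09 and CSTA at 0.21. In vehicle, K154Q minus K154R had a median of -0.145 for the lysosomal proteases, with 1 of 13 positive. The amyloid list was at -0.123 with 0 of 9 positive, and the companions at -0.102 with 0 of 12. The other aspartic proteases were at -0.035 with 3 of 8 positive and the cystatins at -0.044, beside 0.003 over all tested genes. Of the 13, 1 had an unadjusted edgeR p under 0.05, beside 1.28% of all genes. Values lower in K154Q than in K154R were thus not limited to dexamethasone. Against WT in vehicle, the lysosomal proteases had a median of 0.104 in K154R and -0.066 in K154Q. These medians were 0.069 and -0.0515 for the amyloid list, 0.042 and -0.066 for the companions, and 0.0325 and -0.0151 for the other aspartic proteases. The cystatins were at 0.0705 and 0.006. With dexamethasone the lysosomal proteases were at 0.034 in K154R and -0.156 in K154Q against WT.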

How the data were processed

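Poly(A) libraries of 24 HepG2 cultures were analysed from the table of gene-level read counts that the authors deposited, with no normalization applied. Per the submitters' processing notes the tools were bcl2fastq 2.20.0.422, cutadapt 3.7, STAR 2.7.6a and featureCounts 2.0.3, with the build GRCh38.p13. Annotation release, strand setting and treatment of multi-mapping reads are unknown here, since no source used gives them. Samples were grouped by their titles. In R 4.3.3, edgeR 4.0.16 (with limma 3.58.1) was used with filterByExpr by the 6 groups, TMM scaling and its quasi-likelihood test, fitted to all 24 libraries with a mean for each group. The call was an adjusted p (Benjamini-Hochberg over 16196 genes) under 0.05, and the averaged response is the mean of the 3 genotype responses. The SE is the absolute log2 fold change over the root of the test's F, and 95% intervals use it. The script was tested on simulated data.

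The genes, lists and tests were chosen with earlier results of these data known. Named genes were the 7 proteases, every list member called in any contrast or otherwise the 3 with the smallest p for the averaged response, the 5 genes most like PGC and NAPSB under each measure, and NR3C1 and FKBP5. TFEB was added by position, and some genes that met these rules are not reported here. Gene positions are from GENCODE 29, promoters from a RefSeq table (GRCh38.p14).

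Whether replicate numbers pair libraries was checked by correlating, over the tested genes, how libraries departed from their group means. For 55 of 60 pairs with the same number r exceeded 0.1, and all did for the responses in K154R and K154Q, their difference, the vehicle comparisons and the dexamethasone level of K154Q against K154R. Replicates differed by far more than sampling noise (lowest chi-square per degree of freedom 12). Alternatives were RLE factors, raw totals, no filter, DESeq2 1.42.0, the replicate block, fits on 1 genotype or treatment, and each library left out.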

Additional observations from a re-analysis of the deposited data

Results flagged for a closer look

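Within the 42 gene and group combinations of the 7 proteases, 41 had a spread, and 5 held a library whose gap to its nearest neighbour exceeded Dixon's 95% critical share of the range of its 4 values. Chance alone marks about 1 in 20 groups. NAPSB stood at 4.01 CPM (122 counts) in K154Q dexamethasone replicate 4, where the other 3 libraries ran from 1.06 to 1.51 CPM. CTSD in the same library stood at 171 CPM, with the others between 134 and 139 CPM. Without this library the log2 response in K154Q was 3.23 for NAPSB and -0.14 for CTSD, and the CTSD level with dexamethasone in K154Q minus K154R was -0.36. The other 3 were NAPSA values that rest on single counts: 0.0279 CPM (1 count) in WT vehicle replicate 3 and 0.0236 CPM (1 count) in K154R vehicle replicate 1, each beside 3 libraries at 0, and 0 in K154Q dexamethasone replicate 2, beside 0.0302 to 0.0353 CPM.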

How the results depend on the processing

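The averaged responses of PGC, NAPSB, CTSD and BACE1 kept their direction under every alternative run, and CTSD and BACE1 were called under none. Directions of values near 0 changed when 1 library was left out, over these ranges: BACE1 response in WT -0.0034 to 0.16 and in K154R -0.015 to 0.18, CTSD response in K154R -0.030 to 0.17 and in K154Q -0.14 to 0.00021, CTSE response in K154R -0.0038 to 0.55. For K154R minus WT the ranges were -0.49 to 0.55 for NAPSB, -0.15 to 0.069 for CTSD, -0.49 to 0.070 for CTSE and -0.092 to 0.098 for BACE1. For K154Q minus WT they were -0.29 to 0.078 for PGC and -0.073 to 0.095 for BACE1, and for K154Q minus K154R -0.089 to 0.11 for BACE1. With libraries numbered 1 left out, values that turned were the BACE1 response in K154R (-0.024), NAPSB in K154R minus WT (-0.37) and BACE1 in K154Q minus WT (-0.039). With those numbered 4 left out, BACE1 turned in WT (-0.029), in K154R minus WT (0.20) and in K154Q minus K154R (-0.099). The causes were not tested. Both of these, and TFEB, were chosen after seeing the data. Genes called in WT, K154R, K154Q and the average numbered 26, 50, 21 and 172, against 78, 109, 72 and 325 with no filter, 128, 200, 117 and 685 with the replicate block, and 16, 24 and 12 for the genotypes fitted alone. DESeq2 called 55, 77 and 47 in the genotypes. Without number 1 the count was 16 in WT and 30 in K154R, and without number 4 it was 17, 29, 11 and 107. Leaving out 1 library gave 19 to 30, 23 to 67, 15 to 28 and 157 to 234, with 23 to 33 in K154R when vehicle replicate 2 or 3 or dexamethasone replicate 2 or 4 was left out. TFEB in WT was called with no filter (adjusted p = 8.42e-04) and with the replicate block (1.33e-04), and its K154Q call was lost in the genotype fitted alone (0.313) and without number 1 (0.259) or 4 (0.628). SORT1, called in the main fit, had an edgeR adjusted p of 1.56e-04 with the block. Among the tested proteases, TFEB and the listed genes, the block changed no call other than that of TFEB in WT. The genes most like PGC and NAPSB were not examined with the block. Depth limits NAPSA, BACE2, CTSE and vehicle NAPSB.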
